A study of Homo sapiens with 14 samples.

Results

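The urokinase receptor gene PLAUR, its ligand PLAU, the matrix metalloproteinases MMP7, MMP14 and MMP15, the tissue inhibitors TIMP1, TIMP2 and TIMP3, and the transglutaminase TGM2 were examined in cultured colorectal cancer cells. These 9 genes were found by symbol, 9 of the 36601 genes in the single-cell tables and 9 of the 60624 in the bulk tables. The cells were SW620 and SW480, established lines of the same patient, and SW620-TET2CD, which overexpresses the catalytic domain of the DNA demethylase TET2. The SW620 cultures are the controls, and their labels give SW620 alone. The study names its single-cell controls SW620-FLAG, cells with an empty vector. For the bulk SW620 libraries it does not state a vector. All were long-term cultures kept without passage. Single-cell RNA-seq gave 1 library each of SW620 and SW620-TET2CD on days 6, 9, 12 and 15, and bulk RNA-seq gave SW480 and SW620 on day 6 and, on day 15, cells inside and outside the colonies of SW620 and SW620-TET2CD. Outside cells were those that passed a strainer after a short accutase treatment, and inside cells were those of the retained spheres. Whether a line was 1 clone is not stated in the labels, and each condition was 1 library.

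Pericellular proteolysis removes matrix around cells and is widely studied in colorectal cancer invasion. The secreted protease urokinase (PLAU) binds its surface receptor (PLAUR) and converts plasminogen to plasmin. Among the metalloproteinases, MMP14 and MMP15 are anchored in the plasma membrane, while MMP7 (matrilysin) is secreted and is a known WNT target in intestinal tumours. The TIMP proteins inhibit metalloproteinases, TIMP3 stays bound to the matrix, and TIMP2 together with MMP14 also takes part in activating MMP2. TGM2 crosslinks proteins, fibronectin among its partners.

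In GRCh38 with the GENCODE annotation, PLAUR lies on chromosome 19 at 43646095 to 43670547, PLAU on chromosome 10 at 73909177 to 73917496 and MMP7 on chromosome 11 at 102520508 to 102530750. MMP14 lies on chromosome 14 at 22836560 to 22849041 and MMP15 on chromosome 16 at 58025754 to 58046901. TIMP1 is on chromosome X at 47582408 to 47586789, TIMP2 on chromosome 17 at 78852977 to 78925387, TIMP3 on chromosome 22 at 32801705 to 32863041 and TGM2 on chromosome 20 at 38127385 to 38166578. Genes of the opposite strand overlap PLAU, TIMP1, TIMP2, TIMP3 and TGM2. The bulk kit does not mark strand, so their bulk reads cannot be told apart from those of such partners where exons overlap. SYN1, which overlaps TIMP1, reached 0.26 TPM at most, whereas SYN3 (around TIMP3) reached 4.15 TPM and RPRD1B (beside TGM2) 33.7 TPM.

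Promoter sequences were at hand for 7 of the 9 genes, without TIMP2 and TGM2 (RefSeq, GRCh38.p14, 250 bases before to 50 bases after each start). The 250 bases before the start are shown for PLAUR and MMP14, which rose most among the genes with an entry, and for MMP7, the only one of the 9 genes that fell. They are written 5′ to 3′ on the strand of the gene (minus for PLAUR and MMP7, plus for MMP14), at chr19:43670170-43670419, chr11:102530748-102530997 and chr14:22836335-22836584. Capitals mark matches on either strand to AP-1 (TGAGTCA or TGACTCA), to the core of the hypoxia response element (ACGTG or GCGTG) and to the TCF/LEF core (CTTTGA).
PLAUR: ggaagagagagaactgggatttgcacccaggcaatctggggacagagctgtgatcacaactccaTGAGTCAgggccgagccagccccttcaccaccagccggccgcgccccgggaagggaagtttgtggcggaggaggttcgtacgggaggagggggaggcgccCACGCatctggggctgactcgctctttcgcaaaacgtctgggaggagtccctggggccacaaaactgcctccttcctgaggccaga
MMP7: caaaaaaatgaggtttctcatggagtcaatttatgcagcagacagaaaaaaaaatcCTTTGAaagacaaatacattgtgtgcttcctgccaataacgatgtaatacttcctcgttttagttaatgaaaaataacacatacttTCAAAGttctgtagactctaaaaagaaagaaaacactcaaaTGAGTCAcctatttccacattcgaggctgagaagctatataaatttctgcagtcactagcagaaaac
MMP14: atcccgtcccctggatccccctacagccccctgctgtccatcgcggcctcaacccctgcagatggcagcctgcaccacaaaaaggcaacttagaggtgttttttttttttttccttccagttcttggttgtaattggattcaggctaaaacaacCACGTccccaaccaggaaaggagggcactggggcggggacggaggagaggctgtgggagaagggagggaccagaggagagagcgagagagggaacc
An AP-1 match stood at -186 in PLAUR and at -67 in MMP7, counted in bases from the start, and in no other of the 7 genes, while 4.95% of all 35116 promoters of this length hold one. MMP7 alone held the TCF/LEF core, at -194 and -108, against 12.9% of all promoters. The hypoxia core was found in PLAUR, PLAU, MMP14, TIMP1 and TIMP3, and in 48.4% of all promoters. A match is a description of the letters and not a bound site.

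Kept cells numbered 48282, with 48186195 to 74185723 unique molecular identifiers (UMIs) per library, and the bulk libraries held 16470176 to 25840563 expected counts. TET2, the overexpressed gene, stood at 2.11 to 3.90 CPM (a UMI count scaled to the library's total) in SW620. In SW620-TET2CD it was 107, 59.5, 40.2 and 41.6 CPM on days 6, 9, 12 and 15. The lines did not overlap, and in SW620-TET2CD the level of TET2 was not constant over the days. In bulk TET2 stood at 38.1 TPM (a bulk level scaled to transcript length and library total) inside and 124 TPM outside the SW620-TET2CD colonies. It stood at 1.15 to 1.38 TPM in the SW620 libraries. The 10 epithelial markers summed to 9414 to 14042 CPM in every single-cell library, with KRT20 and CDX1 below 1 CPM. Fibroblast markers summed to 16.7 to 28.8 CPM early and 8.49 to 12.9 CPM late, all but LUM and COL1A1 of the 8 genes being below 1 CPM in every library. The leukocyte markers summed to 7.80 to 17.7 CPM early and 24.1 to 57.9 CPM late, through CD68 and LYZ, while PTPRC, CD3E, CD14, ITGAM and CD79A stayed below 1 CPM. Endothelial markers summed to 2.61 CPM at most, with KDR at 0. At most 0.334% of the cell barcodes of a library were shared with another.

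The first comparison set the late days (12 and 15) against the early days (6 and 9) of both lines. PLAUR, MMP14 and TGM2 rose strongly, TIMP2 and MMP15 rose slightly, MMP7 fell, and PLAU, TIMP1 and TIMP3 did not pass the test. Thus 5 of the 9 genes were higher and 1 was lower. Over all 16993 genes tested, 29.4% were called higher and 28.3% lower (edgeR quasi-likelihood test, adjusted p under 0.05). The median log2 fold change was 0.55 over the 9 genes and 0.04 over all genes. Since the 9 genes were chosen with earlier results of these data known, these counts and medians only describe them. With 1 library for each line and day, the p-values measure the spread over lines and days and not that of repeated cultures.

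**Figure D1:**
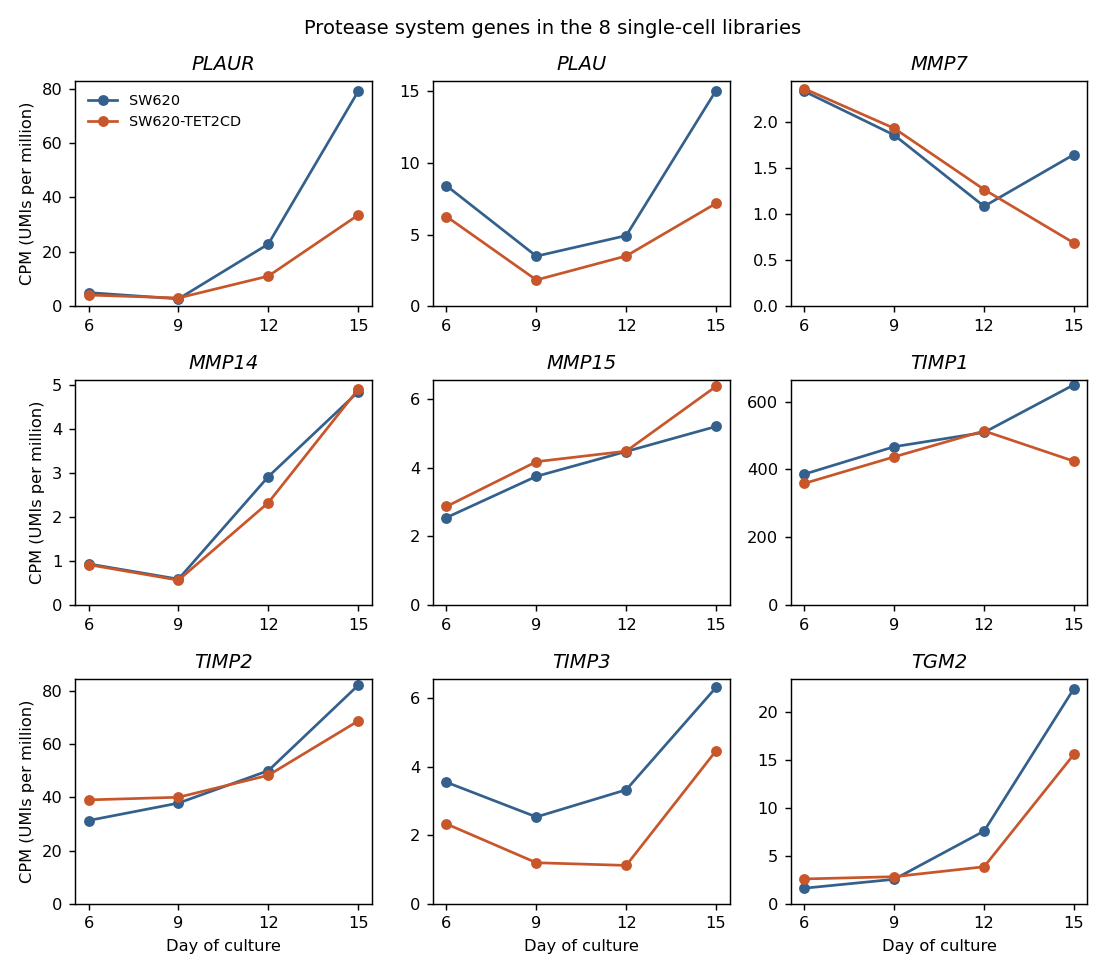
Level of each of the 9 genes in the 8 single-cell libraries (y axis, CPM, starting at 0, with its own scale for each gene) by day of culture (x axis). Each point is 1 library, blue for SW620 and orange for SW620-TET2CD, and PLAUR reached 79.0 CPM in SW620 and 33.5 CPM in SW620-TET2CD on day 15.

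PLAUR stood at 5.03, 2.72, 22.9 and 79.0 CPM in SW620 on days 6, 9, 12 and 15. In SW620-TET2CD it stood at 4.12, 3.05, 11.1 and 33.5 CPM. All 4 late libraries lay above all 4 early ones, and the 2 day 15 libraries were the highest. The fitted log2 fold change was 3.07 ± 0.50 (SE, 8 libraries), with an adjusted p of 0.000468 by edgeR. Without SW620 on day 15 it was 2.42 (adjusted p = 0.000423). From day 6 to day 15 the level rose 15.7-fold in SW620 and 8.13-fold in SW620-TET2CD. CD68, the leukocyte marker above, rose in the same libraries (log2 fold change 3.10), and its part in this result was not tested, while PTPRC was below 1 CPM throughout.

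PLAU, the ligand, did not pass the test of late against early days. Its level was 8.40, 3.49, 4.93 and 15.0 CPM in SW620 and 6.25, 1.83, 3.51 and 7.17 CPM in SW620-TET2CD. Day 9 was the lowest and day 15 the highest in each line, so the early and late libraries overlapped. The log2 fold change was 0.47 ± 0.47 (adjusted p = 0.412, edgeR), and without the SW620 library of day 15 it was -0.049 (adjusted p = 0.936).

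MMP14, the membrane-anchored collagenase, was rare in the single-cell libraries, with 0.935, 0.588, 2.92 and 4.84 CPM in SW620 and 0.917, 0.565, 2.32 and 4.90 CPM in SW620-TET2CD. The lines differed little and every late library exceeded every early one. The log2 fold change was 2.20 ± 0.31 (adjusted p = 0.000206, edgeR). MMP15, its close relative, went from 2.55 to 5.20 CPM in SW620 and from 2.87 to 6.37 CPM in SW620-TET2CD between days 6 and 15. Its late libraries lay narrowly above its early ones (4.47 against 4.18 CPM at the nearest), with a log2 fold change of 0.51 ± 0.19 (adjusted p = 0.0408, edgeR). This call was lost in 6 of the 15 other settings, 4 of them leaving out a day 6 or a day 15 library, where adjusted p was 0.107 to 0.134.

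MMP7 moved the other way. It held 2.33, 1.86, 1.08 and 1.65 CPM in SW620 and 2.36, 1.93, 1.27 and 0.686 CPM in SW620-TET2CD, so that all late libraries lay below all early ones. The log2 fold change was -0.97 ± 0.28 (adjusted p = 0.0117, edgeR), from 35 to 175 UMIs per library.

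Of the inhibitors, TIMP1 was by far the most abundant, at 386, 467, 509 and 650 CPM in SW620 and 359, 437, 514 and 424 CPM in SW620-TET2CD. The late libraries overlapped the early ones through SW620-TET2CD on day 15, and the log2 fold change of 0.24 ± 0.16 did not pass (adjusted p = 0.224, edgeR). With upper-quartile scaling, which moves the median of all genes up by 0.17 on the log2 scale, it was 0.40 (adjusted p = 0.0379). TIMP2 rose from 31.3 to 82.1 CPM in SW620 and from 39.1 to 68.7 CPM in SW620-TET2CD between days 6 and 15. Its late and early libraries did not overlap, and the log2 fold change was 0.64 ± 0.20 (adjusted p = 0.0169, edgeR). Without SW620 on day 6 the adjusted p was 0.0682, and without SW620-TET2CD on day 15 it was 0.0501. TIMP3 stood at 3.55, 2.54, 3.33 and 6.32 CPM in SW620 and 2.33, 1.20, 1.12 and 4.47 CPM in SW620-TET2CD. Day 15 was the highest in each line while days 9 and 12 overlapped, and the log2 fold change of 0.55 ± 0.39 did not pass (adjusted p = 0.248, edgeR), although without SW620-TET2CD on day 12 it was 0.82 (adjusted p = 0.0334).

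TGM2, the crosslinking enzyme, stood at 1.63, 2.55, 7.59 and 22.4 CPM in SW620, and SW620-TET2CD had 2.59, 2.83, 3.86 and 15.6 CPM. Every late library lay above every early one, and day 15 stood above day 12 by 2.96-fold in SW620 and 4.04-fold in SW620-TET2CD. The log2 fold change was 2.24 ± 0.48 (adjusted p = 0.00252, edgeR). Late libraries lay wholly above early ones for PLAUR, MMP14, MMP15, TIMP2 and TGM2, that is 5 of 9 genes, and 23.8% of all genes tested did so. That share was counted on CPM with edgeR scaling, and the 9 genes on plain CPM.

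The other genes of the system gave the following counts in the same comparison, in which 29.4% of all genes were called higher and 28.3% lower. Of the 29 genes of the plasminogen system, 23 were tested, and 11 rose and 2 fell. Besides PLAUR, the protease inhibitor SERPINE2 (log2 fold change 2.63) rose most among those with at least 8 CPM, and the plasminogen-binding enolase ENO1 fell by 0.59. Of 23 MMP genes only 8 were tested, of which 4 rose and 1 fell, and MMP17 (0.82) and MMP19 (0.98), named after their values were seen, joined MMP14 and MMP15 among the risers. Of 8 tested genes around metalloproteinase inhibition, TIMP2 rose while BSG, an inducer of MMPs, fell by 1.01 and SDC1, a shed syndecan, fell by 0.54. Of 14 tested ADAM and ADAMTS genes 7 rose and 2 fell, and among those with at least 8 CPM the sheddase ADAM17 rose most (0.94). TGM2 rose and TGM5, named after its values were seen, fell among 3 tested transglutaminases. Matrix genes rose in 14 and fell in 3 of 21, and with the same limit of 8 CPM COL6A1 (2.06), LAMA3 (1.68) and LAMA5 (1.56) were the highest and TNC (-2.06) was the lowest. Of 10 tested genes of matrix crosslinking or collagen modification 6 rose and 2 fell. Above that limit the collagen-modifying P4HA1 (2.29) was the highest and P4HB (-0.54) the only fall. The median log2 fold change was 0.47 for the plasminogen system, 0.59 for the MMP genes and 0.62 for the matrix genes, against 0.04 for all genes, and none of these lists was tested against other genes. The lists, too, were chosen with earlier results of these data known.

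**Figure D2:**
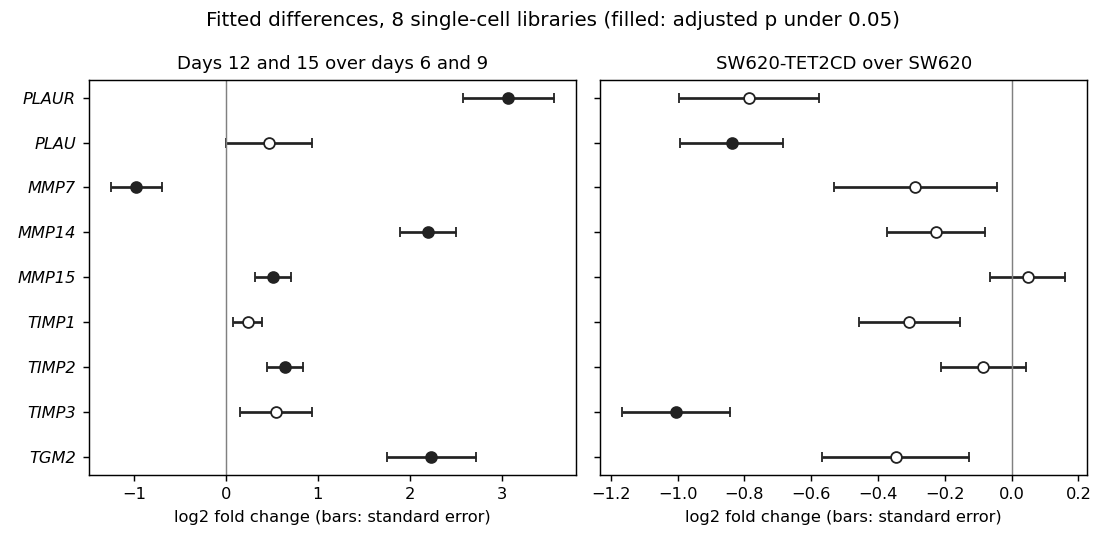
Fitted log2 fold changes (x axis) of the 9 genes (y axis) in the 8 single-cell libraries, late over early days on the left and SW620-TET2CD over SW620 on the right. Points are edgeR estimates with bars of 1 standard error, filled where adjusted p is under 0.05, which held for 6 genes on the left and for PLAU and TIMP3 on the right.

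The second comparison set SW620-TET2CD against SW620 at matched days. An effect of TET2CD cannot be told apart from other differences between the 2 lines or their cultures. PLAU and TIMP3 were lower in SW620-TET2CD, and none of the 9 genes was called higher. Of all 17478 genes tested 1.84% were called lower and 2.48% higher (edgeR, day as a block). PLAU had its lower value in SW620-TET2CD at each of 4 days, by 1.34-, 1.90-, 1.40- and 2.10-fold on days 6, 9, 12 and 15. Its log2 fold change was -0.84 ± 0.15 (adjusted p = 0.00837, edgeR), and 0.0530 was the adjusted p without SW620 on day 9. TIMP3 was also lower at each of 4 days, by 1.52-, 2.12-, 2.97- and 1.41-fold, with a log2 fold change of -1.004 ± 0.16 (adjusted p = 0.00388, edgeR). A lower level on 4 of 4 days was seen in 13.1% of all genes, and a higher level on 4 of 4 days in 10.4%. MMP15 was higher on 4 of 4 days, but on day 12 the lines were nearly equal (4.48 against 4.47 CPM). These shares of all genes were counted on CPM with edgeR scaling, and the 9 genes on plain CPM. With no block for the day, neither call held (adjusted p = 1.0 for each).

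For PLAUR the lines were close on days 6 and 9 (1.22-fold higher and 0.893-fold in SW620 relative to SW620-TET2CD), and SW620 was 2.06-fold higher on day 12 and 2.36-fold higher on day 15. The log2 fold change over all days was -0.79 ± 0.21, just short of the threshold (adjusted p = 0.0599, edgeR). Adjusted p was 0.0170 to 0.0472 with upper-quartile scaling and without any 1 library of day 6 or day 9, and the call was also made with no filter on low counts. By DESeq2 the adjusted p was 0.396. Without a library of day 12 or day 15 the call was not made. Over all left-out libraries the log2 fold change ranged from -1.01 to -0.49. MMP7, MMP14, MMP15, TIMP1, TIMP2 and TGM2 had log2 fold changes of -0.35 to 0.05 that did not pass. Whether the change from early to late days differed between the lines was tested as an interaction. No member passed (lowest unadjusted p 0.178, PLAUR), nor did any gene (0% of 17478 by edgeR, 141 at an unadjusted p under 0.05 and 0 by DESeq2). For PLAUR the interaction was -1.26 ± 0.87 on the log2 scale, and 0.00486 without SW620 on day 15. On simulated counts this test recovered 13% of genes given a log2 difference of 1 and 74% of those given 2.

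Among related genes the collagen gene COL6A1 was lower in SW620-TET2CD (log2 fold change -0.61), as were the laminin gene LAMA5 (-0.38) and the lysyl oxidase LOXL1 (-0.76). Of 24 tested plasminogen system genes, PLAU among them, 3 were lower and 1 was higher, and of 21 matrix genes 4 were lower and 2 higher. Over all 17478 genes tested 1.84% were lower and 2.48% higher. The lists were chosen with earlier results of these data known and were not tested against other genes. None of 8 tested MMP genes passed. CD68 was lower as well (-1.09) and LYZ was higher (0.82). Of 3 tested endothelial markers CLDN5 (3.43) and PECAM1 (1.89) were higher, each at 1.37 CPM or less in every library, with KDR at 0. The part of these markers in the results was not tested.

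Each cell was thinned to 2000 UMIs to count the share of cells with a UMI of each gene. At so few UMIs per cell, that share depends largely on the mean level of the gene. By itself it cannot tell a high level in few cells from a low level in many. In SW620 the share of cells with at least 1 PLAUR UMI was 0.723% on day 6 (exact 95% interval 0.517 to 0.984), 0.388% on day 9, 4.66% on day 12 and 14.8% on day 15 (13.95 to 15.7). In SW620-TET2CD the shares were 0.763%, 0.361%, 2.37% and 6.92% (6.28 to 7.60 on day 15). The lines had overlapping intervals on days 6 and 9 and separate ones on days 12 and 15. At their own depth, 37.1% and 20.6% of the day 15 cells of SW620 and SW620-TET2CD held a PLAUR UMI, where the median depth was 7127 and 8310.5 UMIs. Cells with 2 or more PLAUR UMIs after thinning made up 2.56% and 0.959%. No cell type known to lack PLAUR is present in these cultures, so a background share from free RNA could not be measured. The intervals cover counting error only.

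**Figure D3:**
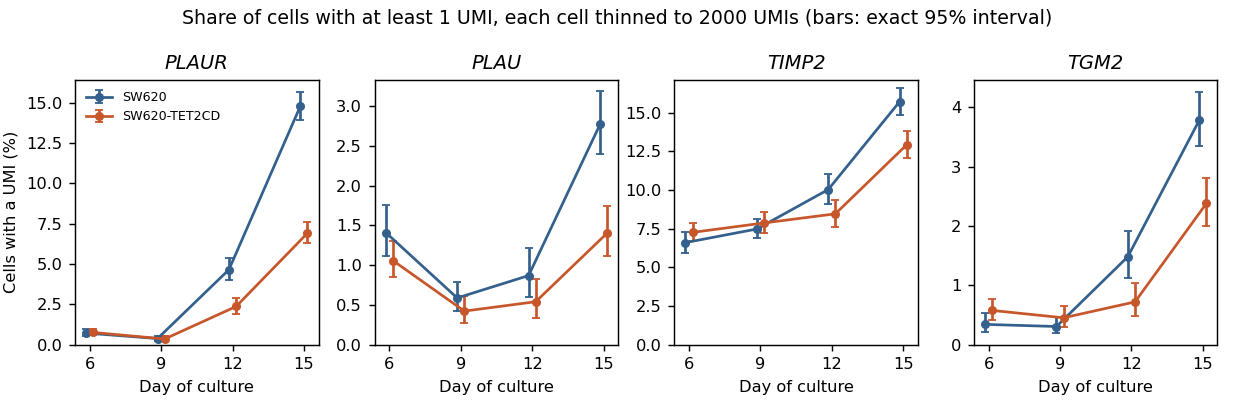
Share of cells with at least 1 UMI of PLAUR, PLAU, TIMP2 or TGM2 (y axis, percent, from 0) by day (x axis), after each cell was thinned to 2000 UMIs. Points are single libraries (blue SW620, orange SW620-TET2CD, shifted sideways for sight) with exact 95% intervals, and PLAUR went from under 1% to 14.8% and 6.92%.

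PLAU was found in 1.41%, 0.589%, 0.870% and 2.77% of thinned SW620 cells on the 4 days, and in 1.06%, 0.423%, 0.542% and 1.40% of SW620-TET2CD cells. TGM2 went from 0.344% to 3.78% and from 0.579% to 2.38% between days 6 and 15. TIMP2 went from 6.60% to 15.7% and from 7.26% to 12.9%. TIMP1 was in 52.9% to 70.3% of SW620 cells and in 48.9% to 60.7% of SW620-TET2CD cells, whereas MMP7, MMP14, MMP15 and TIMP3 were each in under 1.5% of cells in every library.

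Within the late libraries, cells with a PLAUR UMI were set beside cells with none. PLAU, TIMP1, TIMP2 and TGM2 were higher in the PLAUR cells in 4 of 4 late libraries. Among 8687 genes compared, those with a mean of at least 8 CPM over both groups of cells, 15.7% were higher in 4 of 4. In cells with no PLAUR UMI, PLAU stood at 4.29 and 13.9 CPM in SW620 on days 12 and 15. In such cells of SW620-TET2CD it stood at 2.38 and 6.53 CPM. The mean of PLAU in those cells was below 8 CPM, so it reached that limit only through the PLAUR cells. With at least 2 PLAUR UMIs required, which left the day 15 libraries, TGM2 had the other order in SW620 (17.1 against 20.03 CPM) and the other 3 genes stayed higher in 2 of 2. On day 15 in SW620, 1009 cells had a PLAUR UMI and 5815 had none. PLAU stood at 23.8 CPM in the former (exact Poisson interval 17.5 to 31.5) and 13.9 CPM in the latter (11.9 to 16.2). Such intervals cover counting error of UMIs only. TIMP2 stood at 116 against 84.2 CPM, TIMP1 at 793 against 688 CPM and TGM2 at 26.3 against 20.03 CPM, and the TGM2 intervals overlapped. On day 15 in SW620-TET2CD, PLAU stood at 14.9 against 6.53 CPM, where the intervals overlapped narrowly. TIMP2 was at 115 against 69.9 CPM there, and TIMP1 at 593 against 437 CPM. The median depth before thinning was lower in PLAUR cells (6186 against 7362 UMIs in SW620 and 6368 against 8495 in SW620-TET2CD), and its part was not tested. MMP14 was higher in 2 of 4 late libraries, from 0 to 12 UMIs in PLAUR cells, and MMP7, MMP15 and TIMP3 were as sparse.

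**Figure D4:**
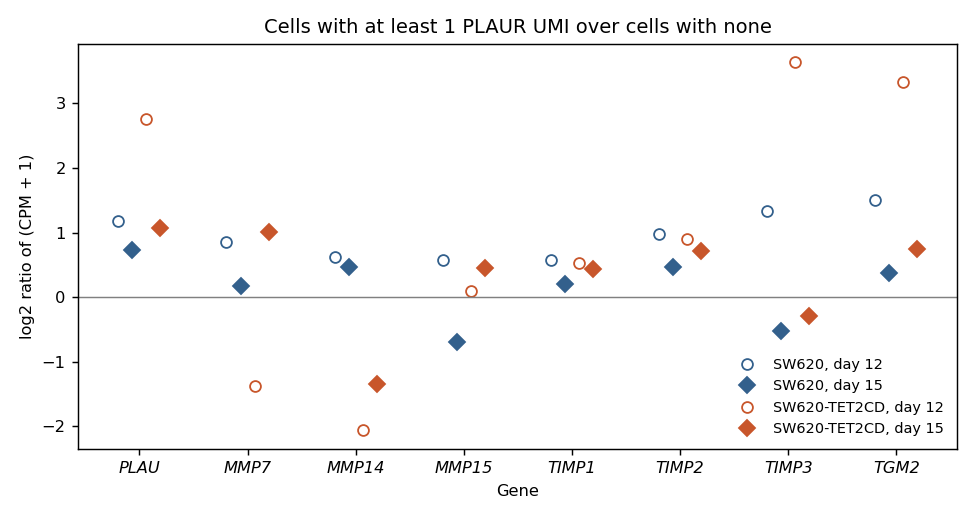
Log2 ratio of (CPM + 1) between cells with at least 1 PLAUR UMI and cells with none (y axis) for the 8 other genes (x axis), each cell thinned to 2000 UMIs. Each point is 1 late library (open circles day 12, filled diamonds day 15, blue SW620, orange SW620-TET2CD), and PLAU, TIMP1, TIMP2 and TGM2 lie above 0 in all 4, while ratios beyond 2 rest on 3 to 7 UMIs, except for MMP14, which had no UMI there.

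Among the genes most raised in PLAUR cells, by their lowest ratio over the 4 late libraries, were EMP1, NDRG1, MT1X and TWIST2, with lowest log2 ratios of 1.13, 1.03, 1.00 and 0.99. EMP1 is an epithelial membrane protein, NDRG1 a stress-induced gene, MT1X a metallothionein and TWIST2 a mesenchymal transcription factor. They were picked by this ratio among genes with a mean of at least 8 CPM over both groups of cells. TWIST2 stood at 2.64 to 6.19 CPM in cells with no PLAUR UMI, so it passed that limit only through the PLAUR cells. EMP1 stood at 47.1 against 20.9 CPM on day 15 in SW620 and at 61.9 against 21.1 CPM in SW620-TET2CD.

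In the 4 SW620-TET2CD libraries, cells with a TET2 UMI were also set beside cells with none. At 2000 UMIs per cell PLAUR was lower in the TET2 cells in 4 of 4 libraries, at 3.56 against 4.22, 0.880 against 1.89, 5.88 against 13.8 and 29.3 against 41.1 CPM on days 6, 9, 12 and 15. The exact Poisson intervals, of UMI counting error only, overlapped in each library. Among 8916 genes with at least 8 CPM in this comparison, 7.12% were lower in TET2 cells in 4 of 4 libraries and 16.1% were higher in 4 of 4, and over the 9 genes 20 of 36 pairs of gene and library were higher. At 4000 UMIs per cell PLAUR was lower in 3 of 4 libraries and higher on day 6 (5.86 against 3.77 CPM), and on day 15 the intervals were apart (18.1 to 31.0 against 37.3 to 42.9 CPM). TIMP1 was lower in 4 of 4 at either depth, for example at 315 against 369 CPM on day 6 with intervals apart. TIMP2 was higher in 4 of 4 at 2000 UMIs, with intervals apart on day 6 (70.2 against 33.5 CPM). At 4000 UMIs TIMP2 had intervals apart on day 9 as well (56.1 against 38.1 CPM) and the other order on day 15 (69.7 against 73.5 CPM). TGM2 stood at 9.33 against 2.14 CPM on day 6 and was lower in TET2 cells on day 12 alone. MMP14, itself below 8 CPM, was higher in 4 of 4 at either depth, with overlapping intervals. TIMP3 was higher in TET2 cells in 3 of 4 libraries at 2000 UMIs, from 0 to 8 UMIs in those cells. At 4000 UMIs it was higher in 4 of 4, with intervals apart on day 6 (3.96 against 1.73 CPM) and on day 15 (11.8 against 4.04 CPM), while its level over all cells was lower in SW620-TET2CD than in SW620.

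Over the 8 single-cell libraries, the genes whose log2(CPM + 1) was most like that of PLAUR among 8716 others were the Notch ligand JAG1 (Pearson r = 0.996), the noncoding RNA SNHG1 (0.994) and PHC2 (0.992). For TIMP1 they were TMEM54 (0.987), CHMP2A (0.983) and the tetraspanin CD63 (0.965), and for TIMP2 they were TMEM120B (0.991), DNAJB2 (0.991) and SLC17A5 (0.990). These 8 points share lines, days and depth, and the values are descriptions.

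In bulk, where TPM accounts for transcript length, levels can be compared between genes. Over the 5 bulk libraries of SW620 and SW620-TET2CD, TIMP1 was the highest (median 299.7 TPM, range 203.8 to 358.8), then TIMP2 (35.3, 27.6 to 60.2), then PLAUR (14.2, 9.79 to 21.6). TIMP1 and TIMP2 did not overlap with the next gene. PLAUR, MMP14 (median 13.3), TGM2 (8.53), MMP15 (7.26), PLAU (4.40), TIMP3 (1.20) and MMP7 (0.56) overlapped each with its neighbour in this order.

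**Figure D5:**
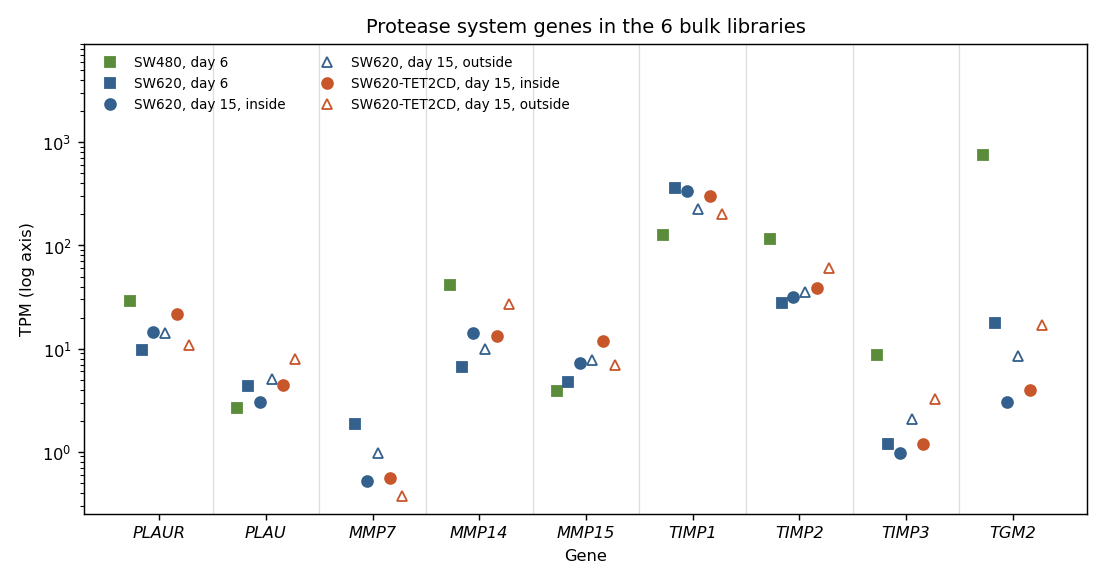
TPM (y axis, log axis) of the 9 genes (x axis) in the 6 bulk libraries, 1 point each (squares day 6, filled circles inside and open triangles outside colonies on day 15, colours for lines). MMP7 in SW480 is listed at 0 and is not drawn, and TGM2 in SW480 (761.7 TPM) is the highest value shown.

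SW480 and SW620 on day 6 were compared as 1 library each, with no test. On the TPM + 1 scale, PLAUR, MMP14, TIMP2, TIMP3 and TGM2 were over 2-fold higher in SW480, and MMP7 and TIMP1 were over 2-fold lower. Among 17191 genes with at least 1 TPM in either, 15.9% were over 2-fold higher and 11.5% over 2-fold lower. TGM2 stood at 761.7 TPM in SW480 and 17.9 TPM in SW620, a 40.4-fold difference on that scale. MMP14 stood at 41.3 and 6.57 TPM, TIMP2 at 116.5 and 27.6 TPM, TIMP3 at 8.64 and 1.20 TPM, and PLAUR at 28.8 and 9.79 TPM. TIMP1 was at 126.7 TPM in SW480 and 358.8 TPM in SW620. MMP7 had 0 counts in SW480 and 23 in SW620, at least 9.86-fold lower against a floor of 3 counts per library. PLAU (2.67 and 4.33 TPM) and MMP15 (3.85 and 4.75 TPM) differed by less than 2-fold.

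Cells inside and outside the day 15 colonies were compared over both lines, 4 bulk libraries in all, with the line as a block. None of the 9 genes passed, and 0% of 17722 genes did (smallest adjusted p 0.278, 1068 genes at an unadjusted p under 0.05, 21 genes by DESeq2). TGM2 stood at 3.05 TPM inside and 8.53 TPM outside the SW620 colonies, and at 3.97 and 16.9 TPM for SW620-TET2CD. It was thus higher outside in 2 of 2 lines, with a log2 fold change of 1.71 ± 0.26 (adjusted p = 0.772, edgeR). By DESeq2 its adjusted p was 7.52e-05. TIMP3 stood at 0.98 and 2.09 TPM in SW620 and at 1.19 and 3.25 TPM in SW620-TET2CD (log2 fold change 1.25 ± 0.23). PLAU stood at 3.02 and 5.07 TPM, and at 4.40 and 7.96 TPM (0.77 ± 0.20). TIMP2 was slightly higher outside in each line (0.37 ± 0.12). TIMP1 was lower outside, at 334.9 and 226.1 TPM in SW620 and at 299.7 and 203.8 TPM in SW620-TET2CD (-0.59 ± 0.10). Hence TGM2, TIMP3, PLAU and TIMP2 were higher outside in both lines, as were 26.5% of all genes, and TIMP1 and PLAUR were lower, as were 29.2%. The 5 endothelial markers summed to 1.08 TPM inside and 1.65 TPM outside in SW620, and to 2.12 and 30.66 TPM in SW620-TET2CD, of which CLDN5 made up 25.13 TPM outside, with KDR at 0. Their part in these values was not tested.

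For PLAUR itself the SW620 values were 14.5 TPM (inside) and 14.2 TPM (outside), and those of SW620-TET2CD were 21.6 and 10.8 TPM. The difference was present in SW620-TET2CD and nearly absent in SW620, and the log2 fold change was -0.62 ± 0.32 (adjusted p = 0.778, edgeR). MMP14, MMP7 and MMP15 had opposite orders in the lines. The inside and outside cells of a line may come from the same culture, and fewer cells of a type cannot be told apart from less RNA per cell in these bulk samples.

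Between SW620-TET2CD and SW620 in the same 4 libraries, with the location as a block, none of the 9 genes passed, and 0.412% of all genes did (73 of 17722, edgeR). CLDN5 was among them (log2 fold change 6.05), and its part was not tested. MMP14 had a log2 fold change of 0.78 ± 0.29, TGM2 of 0.64 ± 0.25, PLAU of 0.58 ± 0.20 and TIMP2 of 0.49 ± 0.12 (lowest adjusted p 0.142). By CPM, PLAU, TIMP2, TIMP3, MMP14 and TGM2 were higher in SW620-TET2CD in 2 of 2 locations, as were 32.3% of all genes. TIMP1 was lower in 2 of 2, as were 35.1%. For MMP14 the SW620-TET2CD values were 13.3 TPM (inside) and 27.0 TPM (outside), against 14.2 and 9.88 TPM in SW620, so that on the TPM scale the inside values had the other order.

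Against the SW620 culture of day 6, the bulk values of day 15 had no replicate and came from another kind of harvest, so they are set side by side only. PLAUR stood at 9.79 TPM on day 6, and at 14.5 and 14.2 TPM inside and outside on day 15. MMP14 stood at 6.57 TPM, then at 14.2 and 9.88 TPM. MMP7 went from 1.85 TPM to 0.52 and 0.97 TPM. TGM2 was at 17.9 TPM on day 6 and lower on day 15, at 3.05 TPM inside and 8.53 TPM outside, an order opposite to that of its single-cell levels. TIMP1 was at 358.8 TPM on day 6 and at 334.9 and 226.1 TPM on day 15, also opposite to its SW620 single-cell levels (386 and 650 CPM). PLAU was at 4.33 TPM on day 6, and day 15 was lower inside (3.02 TPM) and higher outside (5.07 TPM), while its single-cell level was higher on day 15.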

How the data were processed

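For the single-cell libraries (10x 3′ v3.1) the authors deposited UMI counts per gene and barcode, made with Cell Ranger 4.0 against GRCh38, with tables of features and barcodes. For the bulk libraries the authors deposited RSEM expected counts and TPM per gene. The submitters' processing notes name Bowtie, RSEM and mm10 for bulk, although the deposited tables hold human Ensembl identifiers, so the bulk build is uncertain.

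The study's stated limits (genes 200 to 4500, UMIs 1000 to 20000, mitochondrial share up to 10%) left 48282 of 67056 barcodes, more than the study's text gives after its own quality control. Doublets were not called, and an alternative dropped the 8% of cells of highest UMI count. Members and lists were chosen with earlier results of these data known. Counts were summed per library. Expected counts were rounded, and 45 PAR_Y genes were left out. Tests were two-sided, in edgeR 4.0.16 (filterByExpr, TMM, quasi-likelihood) with Benjamini-Hochberg adjustment over all genes and a threshold of 0.05, and DESeq2 1.42.0 as the alternative, in R 4.3.3. TPM of lone libraries was compared after adding 1. On simulated counts with known log2 changes of 1, edgeR found 74% of them by day, 85% by line, 62% by location and 56% by line in bulk. The simulation gave each gene the spread typical of its level, without a spread of its own. These shares may therefore be too high for the data. All members are named whatever their values. Listed genes are named when past the threshold with at least 8 CPM, 3 each way at most, except MMP17, MMP19 and TGM5, which were named after their values were seen. Cell type markers, such as CLDN5 and PECAM1, were named outside this rule. Shares used cells thinned to 2000 UMIs, with exact Clopper-Pearson intervals. Alternatives were other scaling, no filter, other cell limits, no block and leaving out each library. Protein sequences were not used here, and some genes that the naming rule would give are not reported here. With 1 library per condition, p-values do not measure the spread between cultures.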

Additional observations from a re-analysis of the deposited data

Results flagged for a closer look

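MMP7, MMP14 and MMP15 had opposite orders inside and outside the colonies of the 2 lines in bulk, and the difference between lines was not tested, since each line and location had 1 library. Over all 17722 genes tested, 26.5% were higher and 29.2% were lower outside in both lines by CPM. The rest had opposite or tied orders, so such an order is common among all genes. On the log2 scale of TPM, outside minus inside, MMP7 was 0.90 in SW620 and -0.60 in SW620-TET2CD, from 7 to 17 expected counts per library. MMP14 was -0.52 in SW620 and 1.02 in SW620-TET2CD. MMP15 was 0.0811 in SW620 and -0.77 in SW620-TET2CD.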

How the results depend on the processing

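Each condition had 1 library. Of the 9 genes, late against early days gave 6 calls, and 4 to 7 when a library was left out. PLAUR, MMP14, TGM2 and MMP7 were called in every setting tried. Upper-quartile scaling called 63.4% of changed genes as higher in place of 51.0%. On the log2 scale PLAU went from 0.47 to -0.0487 without SW620 on day 15, in a range up to 0.963. Between lines, 2 to 3 of the 9 genes were called without a library and 0 with no block for the day, where 46 of all genes were called in place of 755; no filter gave 1489, and leaving out a library 440 (SW620 on day 9) to 774. MMP7 ranged from -0.426 to 0.0497 and TIMP2 from -0.217 to 0.0831 across the left-out libraries. The interaction gave 0 calls among the 9 genes in every setting, and 15 among all genes with no filter. On the log2 scale its range was -2.19 to 0.00486 for PLAUR, -1.31 to 0.65 for PLAU, -0.77 to 0.29 for MMP14, -0.44 to 0.13 for MMP15 and -1.41 to 0.46 for TIMP3, which was 0.25 with every barcode.

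In bulk, outside against inside gave 1 call by DESeq2 (TGM2) and 3 with no filter (TGM2, TIMP1, TIMP3), and 21 and 472 of all genes in place of 0. The lines gave 3 calls of the 9 with no filter (MMP14, TIMP2, TGM2), and of all genes 2239 with no filter, 709 by DESeq2, 178 with upper-quartile scaling and 8 with no block in place of 73. Leaving out a bulk library left no residual degrees of freedom with the block, so only the ratio of the other pair remained, log2 1.20 to 2.17 for TGM2 outside over inside. The rise of the PLAUR share from day 6 to day 15 was 14.1 points in SW620 at 2000 UMIs, 23.5 at 4000 and 31.9 at own depth. In SW620-TET2CD it was 6.15, 10.4 and 17.2 points, and 5.40 with a mitochondrial limit of 20%. In PLAUR cells 26 of 32 pairs of gene and late library were higher, and 11 of 16 when 2 UMIs were required, where fewer libraries had 50 such cells. The share of such pairs over all genes was not counted, so these counts cannot be set against it. Some pairs rest on very few UMIs, those of MMP7 on 0 to 3 in the PLAUR cells. The cause of these changes was not tested.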

Other observations

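The single-cell and bulk libraries gave opposite orders or unlike sizes for several of the 9 genes, PLAUR, PLAU, TIMP1, TIMP2, TIMP3 and TGM2 among them. TGM2 was higher on day 15 than on day 6 in the single-cell SW620 libraries (22.4 against 1.63 CPM), and lower in bulk (3.05 TPM inside and 8.53 TPM outside against 17.9 TPM). PLAU on day 15 was lower in SW620-TET2CD than in SW620 in the single-cell libraries (7.17 against 15.0 CPM) and higher in bulk, both inside and outside the colonies. TIMP3 had the same contrast, at 4.47 against 6.32 CPM and, outside the colonies, 3.25 against 2.09 TPM. TIMP2 on day 15 was likewise lower in SW620-TET2CD in the single-cell libraries (68.7 against 82.1 CPM) and higher in bulk inside (38.6 against 31.5 TPM) and outside (60.2 against 35.3 TPM). TIMP1 in SW620 was higher on day 15 than on day 6 in the single-cell libraries (650 against 386 CPM) and lower in bulk (334.9 TPM inside and 226.1 TPM outside against 358.8 TPM). PLAUR on day 15 was lower in SW620-TET2CD in the single-cell libraries (33.5 against 79.0 CPM), while in bulk it was higher inside the colonies (21.6 against 14.5 TPM) and lower outside (10.8 against 14.2 TPM). From day 6 to day 15 PLAUR rose 15.7-fold in the single-cell SW620 libraries, and in bulk day 15 over day 6 was 1.49-fold inside and 1.45-fold outside. The 2 assays differ in harvest, kit and counting, and the difference between them was not tested. How many of all genes differ between the assays in this way was not counted, so it cannot be called a trait of these genes.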
